A study of Caenorhabditis elegans with 2 samples.

Results

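The Notch pathway genes lin-12, glp-1, lag-2, apx-1, lag-1 and sel-12 are described here by the entries of CEH-36 peak lists around them in early Caenorhabditis elegans embryos. They are 6 of the 19985 protein-coding genes in the Ensembl release 115 annotation of WBcel235 (ce11), and they were listed by name for their roles in the pathway. Each gene was given a window from 10 kb upstream of its annotated start to 5 kb past its end, read in the direction of transcription. Every entry of the deposited peak lists whose summit lay in a window was counted for that gene.

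CEH-36 belongs to the Otx homeodomain proteins, transcription factors that recognise the core TAATCC. Chromatin immunoprecipitation with sequencing (ChIP-seq) was performed on strain OP620, of genotype unc-119(tm4063) III; wgIs620, in which CEH-36 carries GFP and FLAG at its C-terminus. Whole embryos of both sexes were pooled at the early stage, 2 hours after egg bleaching, so the cell types of the embryo are mixed. The labels describe precipitation with anti-GFP, while their antibody field names ceh-36. The 2 biological replicates form 1 group, with no second condition, and no peaks from an untagged strain were analysed here. The values below are therefore descriptions with no test between groups.

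On ce11 the authors deposited a list of 30000 candidate entries for each replicate and a list of 30000 entries from the pooled replicates. They also deposited an optimal list of 1662 entries that passed their reproducibility threshold. The pooled list is labelled as peaks and background, so its entries outside the optimal list are candidates only. In the member windows the strongest such entry, at lin-12, had a q-value of 0.0104. The strongest entries of apx-1, lag-2 and sel-12 had 0.0879, 0.186 and 0.555. Signal is the value that the authors' peak caller gave each entry, and rank 1 is the strongest entry of a list. Signals were compared within a list only. The lowest signal in the optimal list was 87.2 and the median was 125.1, on the scale of the pooled list. Read depth is unknown from peak lists, and they hold no expression values with which to check the embryonic stage.

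Notch signalling passes from cell to neighbouring cell. A DSL-family ligand on the sending cell binds a Notch receptor on the receiving cell, proteases including the presenilin complex release the receptor's intracellular domain, and this domain joins a CSL-type DNA-binding protein in the nucleus to activate target genes. In the early worm embryo such contacts set the fates of several blastomeres, with GLP-1 as the receptor and APX-1 as a ligand in the earliest of them. The CSL protein of the worm is LAG-1, and CSL proteins recognise sequences such as GTGGGAA.

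The sequences that the results turn on are those at the strongest summits, printed as the forward strand of the RefSeq copy of WBcel235 from 100 bp before to 100 bp after the summit. Capitals mark the core TAATCC or its reverse complement GGATTA, and the LAG-1-type motif GTGGGAA or its reverse complement TTCCCAC. The following 4 are the lin-12 entries that hold a pair of cores, in the order of their positions.
lin-12 optimal entry, intron 3, chrIII:9066857-9067057: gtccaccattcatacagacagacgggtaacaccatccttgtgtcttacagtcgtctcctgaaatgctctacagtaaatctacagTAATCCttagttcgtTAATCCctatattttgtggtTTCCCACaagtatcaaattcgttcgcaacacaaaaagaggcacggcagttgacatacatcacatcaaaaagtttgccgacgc
lin-12 pooled entry, intron 3, chrIII:9067723-9067923: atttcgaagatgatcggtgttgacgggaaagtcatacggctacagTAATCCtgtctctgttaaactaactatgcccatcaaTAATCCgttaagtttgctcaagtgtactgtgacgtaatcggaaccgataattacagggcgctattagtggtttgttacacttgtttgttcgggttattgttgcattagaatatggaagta
lin-12 pooled entry, intron 1, chrIII:9070737-9070937: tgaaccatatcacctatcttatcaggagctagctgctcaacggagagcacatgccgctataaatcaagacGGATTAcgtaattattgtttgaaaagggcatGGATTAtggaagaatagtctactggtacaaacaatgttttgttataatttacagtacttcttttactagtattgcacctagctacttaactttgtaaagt
lin-12 pooled entry, upstream, chrIII:9074382-9074582: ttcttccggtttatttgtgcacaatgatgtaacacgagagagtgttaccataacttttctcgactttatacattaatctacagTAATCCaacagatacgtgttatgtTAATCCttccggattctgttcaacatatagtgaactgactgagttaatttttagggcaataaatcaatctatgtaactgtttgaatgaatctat

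The next set shows the strongest entry in the lag-1 window, which holds 2 LAG-1-type motifs and no core, the entry at the lag-2 start, which holds 1 core, and the optimal entry in the glp-1 window, which holds neither.
lag-1 optimal entry, intron 1, chrIV:6097128-6097328: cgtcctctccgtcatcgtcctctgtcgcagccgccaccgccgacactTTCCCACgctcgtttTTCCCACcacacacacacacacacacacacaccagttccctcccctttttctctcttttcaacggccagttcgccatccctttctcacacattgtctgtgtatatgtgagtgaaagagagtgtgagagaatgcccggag
lag-2 pooled entry, upstream, chrV:3188052-3188252: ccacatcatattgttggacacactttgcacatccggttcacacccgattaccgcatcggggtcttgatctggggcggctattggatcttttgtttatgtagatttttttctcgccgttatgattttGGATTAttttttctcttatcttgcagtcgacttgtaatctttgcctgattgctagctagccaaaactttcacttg
glp-1 window optimal entry, chrIII:9104113-9104313: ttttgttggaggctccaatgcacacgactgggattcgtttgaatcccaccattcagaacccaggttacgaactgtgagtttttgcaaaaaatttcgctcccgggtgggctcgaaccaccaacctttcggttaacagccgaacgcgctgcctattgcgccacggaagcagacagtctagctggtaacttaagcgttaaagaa

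In all, 3 of the 6 genes had an optimal summit in the window, the receptors lin-12 and glp-1 and the nuclear factor lag-1. Over all protein-coding genes the same rule took 21.6%, and 23.8% of the 10998 genes whose windows were within the members' range of 16.8 to 30.2 kb. Only lin-12 and lag-1 had the annotated start nearest to the summit, so 2 of 6 genes were reached by that rule, against 6.92% of all genes. Close to the start, within 1500 bp before it or 500 bp after it, no member had an optimal summit, and only 4.18% of all genes had one. All 6 genes had a pooled summit in the window, which 88.1% of all genes had. Among the 1662 strongest entries of replicate 1 there was 1 summit in each of the lin-12, glp-1 and lag-1 windows, and among those of replicate 2 there was 1 in the glp-1 window alone. The count of 3 genes thus became 1 when replicate 1 was left out.

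Together the 6 windows covered 141.2 kb and held 3 optimal summits, 58 pooled summits, 56 of replicate 1 and 53 of replicate 2. This is 2.12 optimal summits per 100 kb, beside 1.58 over the windows of all protein-coding genes and 1.63 over the nuclear genome. The pooled density was 41.1 summits per 100 kb, beside 29.1 and 29.9. The members differed widely among themselves, from 6.86 pooled summits per 10 kb at lin-12 to 1.15 at sel-12, with a median of 2.57 over all genes. Pooled and replicate 1 entries were mostly 390 bp wide and replicate 2 entries 384 bp, so neighbouring entries can overlap and share sequence. The lin-12 and glp-1 genes lie 20.8 kb apart on chromosome III and lag-2 and apx-1 lie 20.1 kb apart on chromosome V, and their windows do not overlap.

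**Figure D1:**
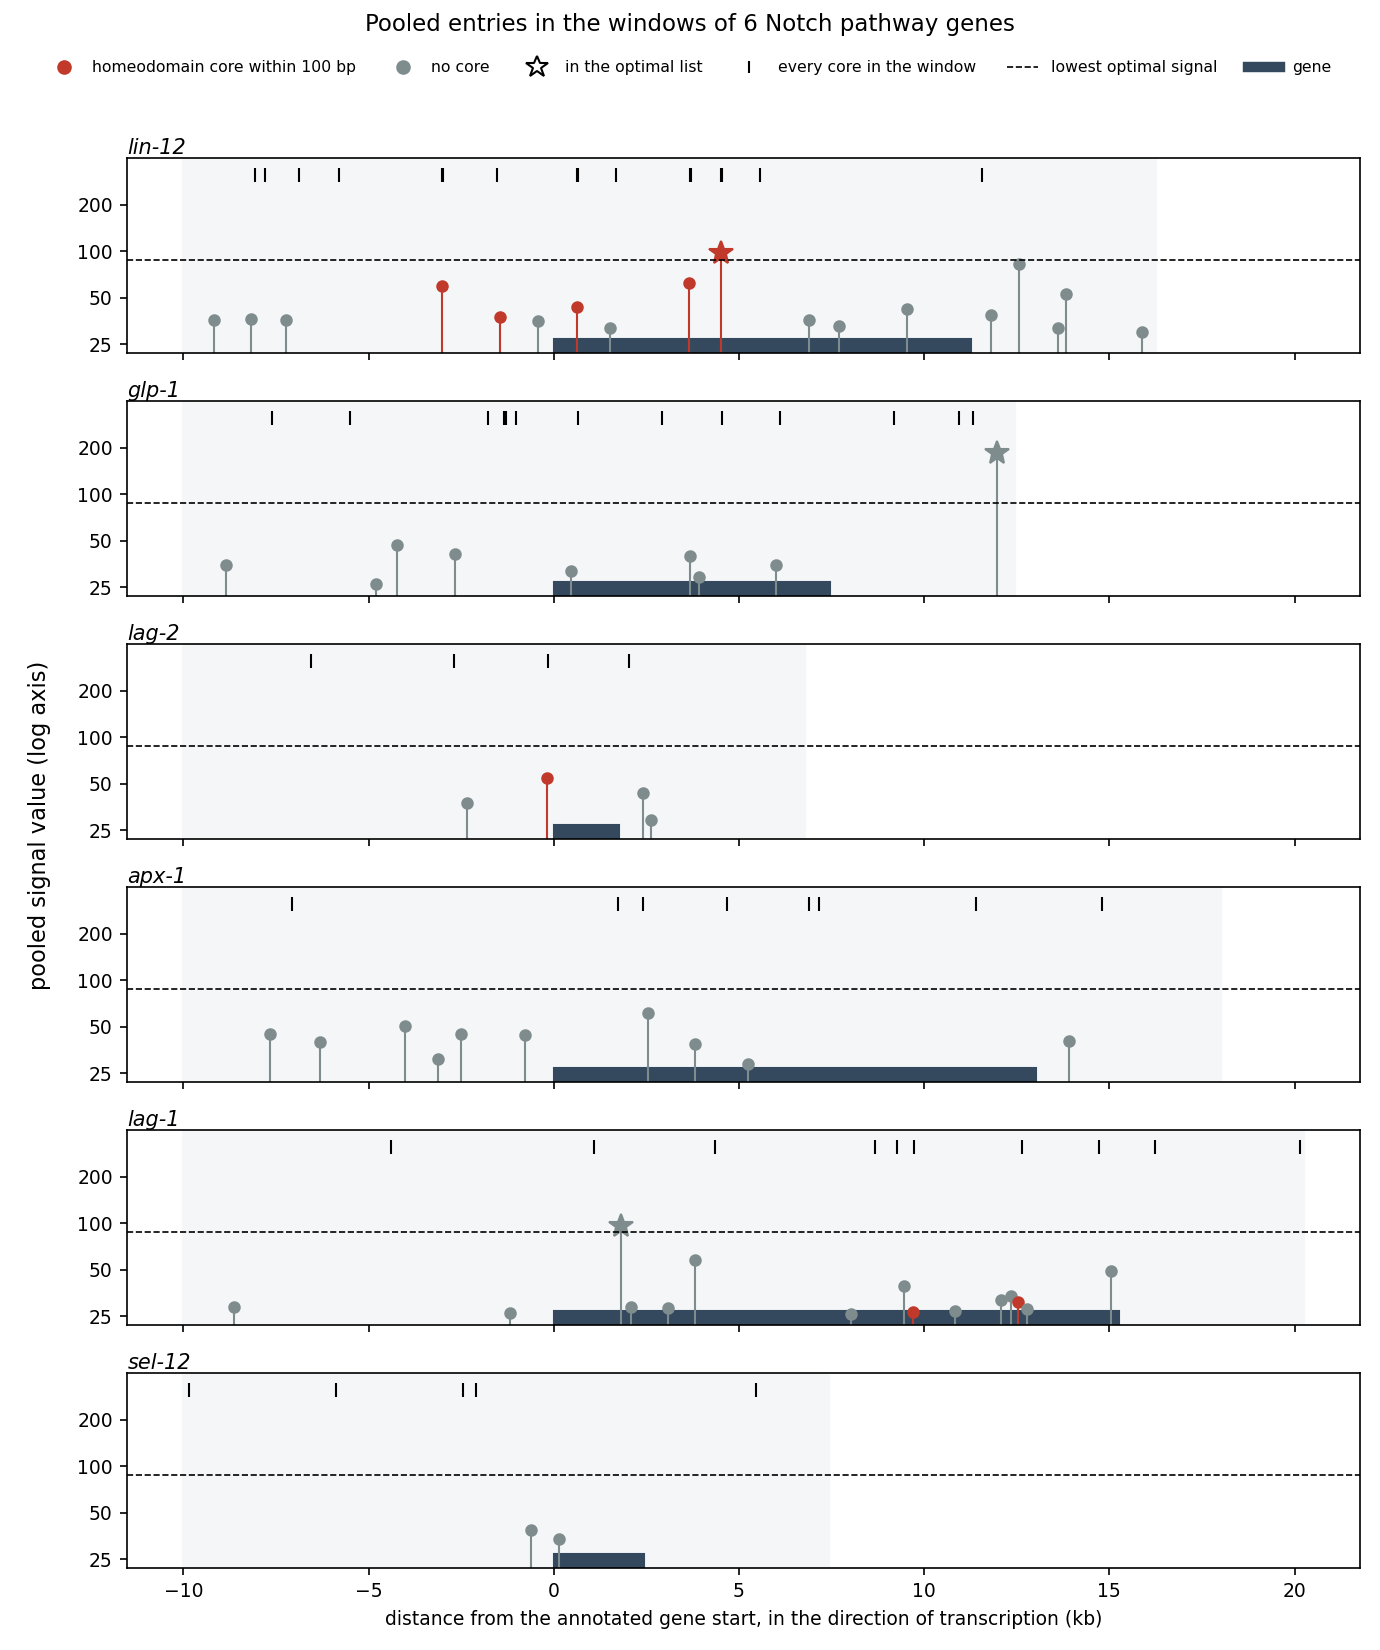
Pooled entries in the 6 windows. The horizontal axis is the distance from the annotated gene start in kb in the direction of transcription, the vertical axis is the pooled signal on a log axis, stars are entries of the optimal list, red marks entries with the homeodomain core within 100 bp of the summit, and ticks along the top are all cores in the window. The lin-12 entries with a core lie from 3010 bp upstream of the start to 4515 bp downstream, while the glp-1 star lies 11972 bp from the start, past the end of the gene.

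The receptor gene lin-12 (WBGene00003001, III, 9060221 to 9071472, minus strand) had the most entries and the most cores of the 6. Its 26.3 kb window held 18 pooled, 18 replicate 1 and 16 replicate 2 summits, and 1.26% of all protein-coding genes had at least as many pooled summits. By density the share of genes at or above it was 4.07%. The gene body held 7 of the 18 pooled summits. The window also held the starts of 4 other protein-coding genes, and lin-12 had the nearest start for 6 of the pooled summits.

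The optimal peak of lin-12 spanned 9066762 to 9067151, with its summit at 9066957, which is 4515 bp downstream of the start in intron 3 of 9. That intron is 1015 bp long. The pooled signal was 97.5, rank 1285, with a q-value at −log10 of 2.23. The peak had a signal of 52.4 at rank 977 in replicate 1 and 50.05 at rank 1688 in replicate 2, with summits 5 and 28 bp from the pooled one. Its rank was thus within the strongest 1662 of replicate 1 and just outside them in replicate 2. Its sequence, printed above, has 2 cores on the same strand with 9 bp between them, starting 16 and 1 bp before the summit, and a LAG-1-type motif starting 19 bp after it. The peaks beside it in the optimal list were nearest to F32B5.2 and to mev-1, a succinate dehydrogenase subunit, above it, and to vab-1, an Eph receptor, and din-1 below it.

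A core lay within 100 bp of 5 of the 18 lin-12 pooled summits, where 19.3% of all pooled entries had one. After the optimal peak the strongest was an entry in the same intron, 3649 bp from the start, with a signal of 62.7 at rank 3791. In the replicates it ranked 10452 and 2946. The entry 3010 bp upstream of the start had a signal of 59.7 at rank 4313, and ranks of 3119 and 8064 in the replicates, and the nearest start to it was that of F02A9.7. The entry in intron 1, 635 bp from the start, had 43.8 at rank 9989, and replicate ranks of 12502 and 10606. The weakest of the 5 was 1458 bp upstream, with 37.7 at rank 14256, and held 1 core. Each of the 5 had a summit of both replicates within 100 bp. Their median signal was 59.7, beside 35.7 for the 13 lin-12 entries without a core. The medians over the whole pooled list were 44.3 with and 35.8 without. In the optimal list they were 121 with and 127 without, so the core did not go with higher signal there. At lag-1 the pooled medians were 28.8 with a core and 28.9 without. At lag-2 the 1 entry with a core had 54.6, beside a median of 37.4 without.

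All but the weakest of these entries, 4 of the 5, held 2 cores each in the same orientation, with 9, 30, 25 and 18 bp between them. In the pooled list 936 of the 5790 entries with a core (16.2%) held 2 or more, and in the optimal list 262 of 692 (37.9%). Of the 797 pooled entries with exactly 2 cores, 65.9% had them on the same strand and 41.5% had at most 30 bp between them, a limit set after the lin-12 gaps were seen, and 246 met both conditions. A core together with a LAG-1-type motif within 100 bp of the summit, as at the lin-12 peak, was found at 15 optimal entries (0.903%) and at 153 pooled entries (0.51%). Among entries with a core, 2.17% of the optimal and 2.64% of the pooled ones had the LAG-1-type motif. Over all entries the shares were 2.17% and 2.67%, so the motif was not more frequent where there was a core.

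Seen from the sites, the lin-12 window held 16 copies of TAATCC, 6.09 per 10 kb beside 3.66 over the nuclear genome. Of these, 9 lay within 100 bp of a pooled summit, and the same 9 lay within 100 bp of a summit of each replicate. Over the 36668 nuclear copies, 18.8% were at a pooled summit and 2.84% at an optimal one. The members together had 12 of 56 copies (21.4%) at a pooled summit and 2 (3.6%) at an optimal summit, both of the latter at the lin-12 peak. The 7 lin-12 copies away from pooled summits included 4 from 5804 to 8057 bp upstream of the start.

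The strongest lin-12 entry without a core lay 1319 bp past the end of the gene, with its summit at 9058902. Its signal of 82.4 at rank 1878 was the highest below the optimal threshold in any member's window, and it ranked 1814 and 2993 in the replicates. Its summit was 429 bp upstream of the start of gst-1, a glutathione S-transferase gene, which was the nearest start. The remaining lin-12 entries without a core had pooled signals from 30.1 to 53.0.

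**Figure D2:**
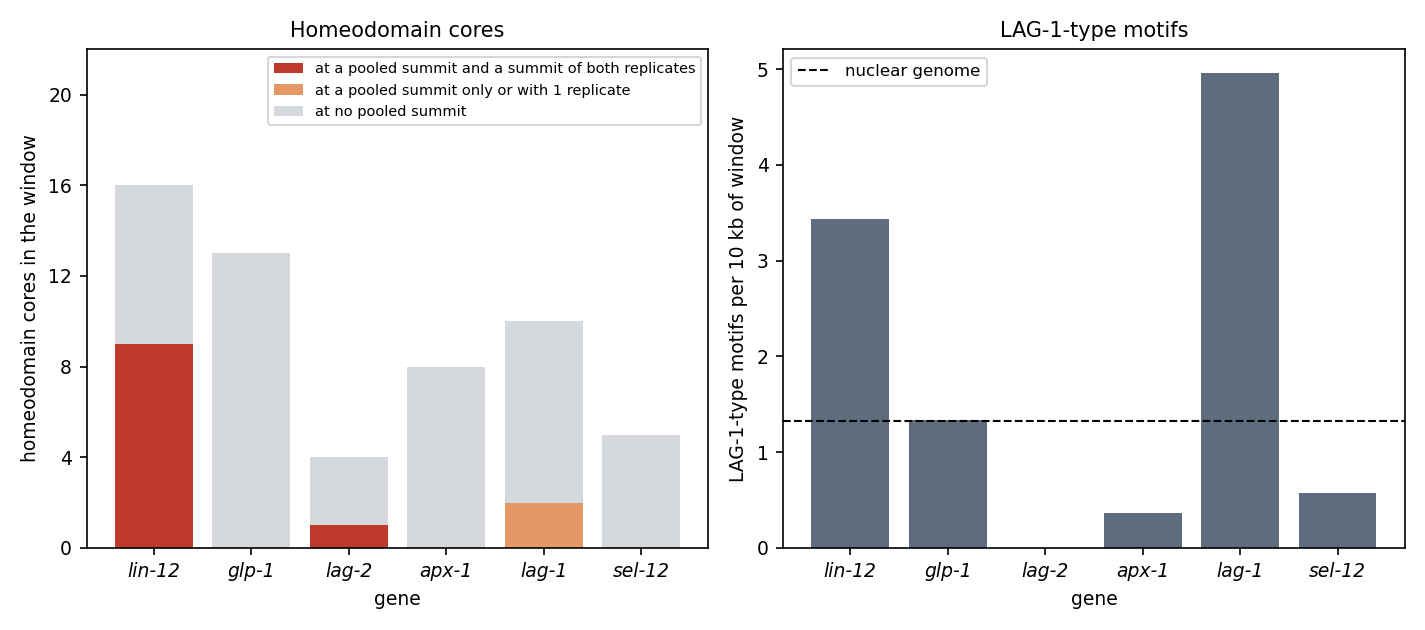
Cores and LAG-1-type motifs in the 6 windows. The left panel counts copies of the core TAATCC on the vertical axis, split by whether a pooled summit and summits of both replicates lay within 100 bp, and the right panel gives copies of GTGGGAA per 10 kb of window, with the nuclear genome as a dashed line at 1.33. The bar of lin-12 has 9 of 16 cores at summits, that of glp-1 has 0 of 13, and lag-1 and lin-12 stand highest for the LAG-1-type motif at 4.96 and 3.43.

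The second receptor gene, glp-1 (WBGene00001609, III, 9092241 to 9099698, plus strand), whose maternal product receives the earliest Notch signals of the embryo, had a strong optimal peak that lay at another gene. The peak spanned 9104199 to 9104302, with its summit at 9104213, and had a signal of 184.3 at rank 423. In the replicates its signals were 95.3 at rank 319 and 86.8 at rank 570, so it was the 1 of the 3 optimal peaks that ranked within the strongest 1662 of both, where 69.1% of all optimal entries did. The summit lay 4515 bp past the end of glp-1 and 270 bp downstream of the start of dos-1 (9103943 to 9106805, plus strand), whose product carries the DOS motif of the Notch co-ligands that lack a DSL domain. It also lay inside an annotated tRNA gene (WBGene00014624, 9104207 to 9104279, minus strand). There was no TAATCC and no TAAT within 100 bp of it. The next weaker peaks in the optimal list were nearest to the proneural gene lin-32 and to F56A8.9. With summits near small RNA genes set aside (up to 500 bp for tRNA and 200 bp for snoRNA), 2 of the 6 members kept an optimal summit, and so did 17.8% of all genes.

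Apart from this peak, the glp-1 window of 22.5 kb held 8 pooled entries, with signals from 26.3 to 47.2. The gene body held 4 of them, at ranks from 12783 to 24237. The strongest of the 8 was 4230 bp upstream of the glp-1 start at rank 8168, inside both mrpl-44 and mccc-2. The window held 13 copies of TAATCC, close to the lin-12 density at 5.79 per 10 kb, and 0 of them lay within 100 bp of a pooled summit. In the replicate lists 1 copy in the gene was at a replicate 1 summit and another at a replicate 2 summit. The neighbouring receptors thus had similar numbers of cores, with 9 of 16 and 0 of 13 at pooled summits, where 18.8% of nuclear copies were. The lin-12 window also held 18 pooled summits to the 9 of glp-1. Most of its 9 cores at summits lay in pairs at the same entry, so they are not separate cases. The difference between the receptors was not tested.

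Among the ligand genes, lag-2 (WBGene00002246, V, 3188343 to 3190115, plus strand), which encodes a DSL ligand, had no optimal summit and 4 pooled summits in 16.8 kb, none within the gene. Of all genes, 60.72% had at least as many. The strongest entry had its summit at 3188152, 191 bp upstream of the start, with a signal of 54.6 at rank 5505. It had a signal of 28.7 at rank 4728 in replicate 1 and 25.5 at rank 10946 in replicate 2, with summits 54 and 12 bp away. Its sequence, printed above, has a core starting 26 bp after the summit, and this was 1 of the 4 cores in the window and the only one at a pooled summit. No other member except sel-12 had a pooled summit closer to its annotated gene start, although an apx-1 entry lay 177 bp from an alternative transcript start. The other lag-2 entries were 2344 bp upstream of the start and 2402 and 2615 bp downstream, past the end of the gene, with signals of 37.4, 43.8 and 29.1. The best lag-2 signal was near the middle of all genes, of which 50.32% had one at least as strong.

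The ligand gene apx-1 (WBGene00000168, V, 3210196 to 3223221, plus strand), which acts in the signal between blastomeres of the very early embryo, had 10 pooled and no optimal summits in 28.0 kb. The strongest had its summit at 3212750, 2554 bp from the start in intron 3 of 7 and 659 bp downstream of an alternative transcript start. Its signal was 61.2 at rank 4043. It had 38.3 at rank 2074 in replicate 1 and 27.6 at rank 8937 in replicate 2. Upstream of the start lay 6 entries, of which the strongest was 4005 bp away with 50.2 at rank 6865 and the closest was 785 bp away with 43.9 at rank 9940. The gene body held 3. None of the 10 had a core within 100 bp, and 0 of the 8 cores in the window were at a pooled summit, although 1 was at a replicate 1 summit and another at a replicate 2 summit.

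The nuclear effector gene lag-1 (WBGene00002245, IV, 6095407 to 6110655, plus strand) had an optimal peak within the gene itself. The peak spanned 6097033 to 6097422 with its summit at 6097228, 1821 bp from the start in intron 1 of 11, which is 5917 bp long in that transcript. Its signal was 95.9 at rank 1325, with 43.5 at rank 1497 in replicate 1 and 48.8 at rank 1795 in replicate 2, and both replicate summits lay 3 bp from the pooled one. It was also isolated, since the nearest optimal summits outside the window were 128.2 kb and 441.1 kb from the gene. There was no TAATCC and no TAAT within 100 bp, where 41.6% of optimal entries had the core. Instead there were 2 copies of GTGGGAA, the motif that the LAG-1 protein's class binds, starting 53 and 38 bp before the summit. Its neighbours in rank were nearest to igcm-4 and ZK131.11 above it, and to F46H5.3 and ZC190.4 below it.

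The lag-1 window of 30.2 kb held 15 pooled summits, of which 13 lay in the gene, and 3.16% of all genes had at least as many. Replicate 1 had 13 and replicate 2 had 9. The next in strength was at 6099218, in the same intron and 2294 bp upstream of another annotated transcript start, with a signal of 57.5 at rank 4738. It ranked 1930 in replicate 1 and 24391 in replicate 2, so the replicates differed widely there. It held 7 copies of TAAT and 1 of TAATTA, and no TAATCC. The entry in the last exon, 204 bp before the end of the gene, had 49.4 at rank 7214 and held 4 copies of TAATTA. The 2 entries with a core were weak, at 26.7 and 30.9, and neither had a summit of both replicates within 100 bp.

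GTGGGAA, on either strand, was chosen for counting only once the summit sequences were known. The lag-1 window held 15 copies, 4.96 per 10 kb, and the lin-12 window 9, 3.43 per 10 kb, beside 1.33 over the nuclear genome. At glp-1 there were 3 and at apx-1 and sel-12 there was 1 each, with 0 at lag-2. Pooled summits lay within 100 bp of 5 of the lag-1 copies and 2 of the lin-12 copies, and over the genome of 6.3%. Optimal summits lay within 100 bp of 2 lag-1 copies and 1 lin-12 copy, and over the genome of 0.31%. Counted by entries, 5 of the 58 pooled entries of the members (8.62%) had the motif within 100 bp, beside 2.67% of all pooled entries and 2.17% of optimal entries. Of equally wide windows placed 500 bp beside the optimal summits, 2.95% had it, so the motif was not more frequent at optimal summits than beside them.

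The presenilin gene sel-12 (WBGene00004769, X, 915867 to 918290, plus strand), which encodes the catalytic subunit of the protease that frees the receptor's intracellular domain, had the fewest and weakest entries. Its 17.4 kb window held 2 pooled summits, 619 bp upstream of the start and 132 bp downstream of it in exon 2. Their signals were 38.4 at rank 13736 and 33.7 at rank 18231. In replicate 2 they ranked 5316 and 18444, and no replicate 1 entry overlapped either of them. The replicate 1 list had 1 summit in the window, at rank 28132, 6261 bp downstream of the start. None of the 5 cores in the window lay within 100 bp of a summit in any list, and 79.41% of all genes had at least as many pooled summits.

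Over the 6 windows, 8 of the 58 pooled entries (13.8%) had TAATCC within 100 bp of the summit, beside 19.3% of all pooled entries, and 5 of the 8 were at lin-12. Equally wide windows placed 500 bp beside the summits had TAATCC in 6.11% of pooled and 7.34% of optimal cases. Of the 3 optimal entries 1 had it, the lin-12 peak. The longer form CTAATCC was found at 1 of the 58, and TAATTA, a core common to other homeodomain classes, at 5 (8.62%), beside 6.92% of all pooled entries. In 39 of the 58 (67.2%) an entry of both replicates overlapped by at least 1 bp. The share over all pooled entries is not given for this rule. It also let 1 replicate entry count for neighbouring pooled entries, as the replicate 2 entry at rank 1795 did in lag-1. A stricter rule, a summit of both replicates within 100 bp, was met by 21 (36.2%), where 37.1% of all pooled entries met it. Among the 8 entries with a core 6 met it, where 52.1% of all pooled entries with a core did. By gene the 21 entries, with or without a core, were 7 of 18 at lin-12, 4 of 9 at glp-1, 3 of 4 at lag-2, 4 of 10 at apx-1, 3 of 15 at lag-1 and 0 of 2 at sel-12.

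**Figure D3:**
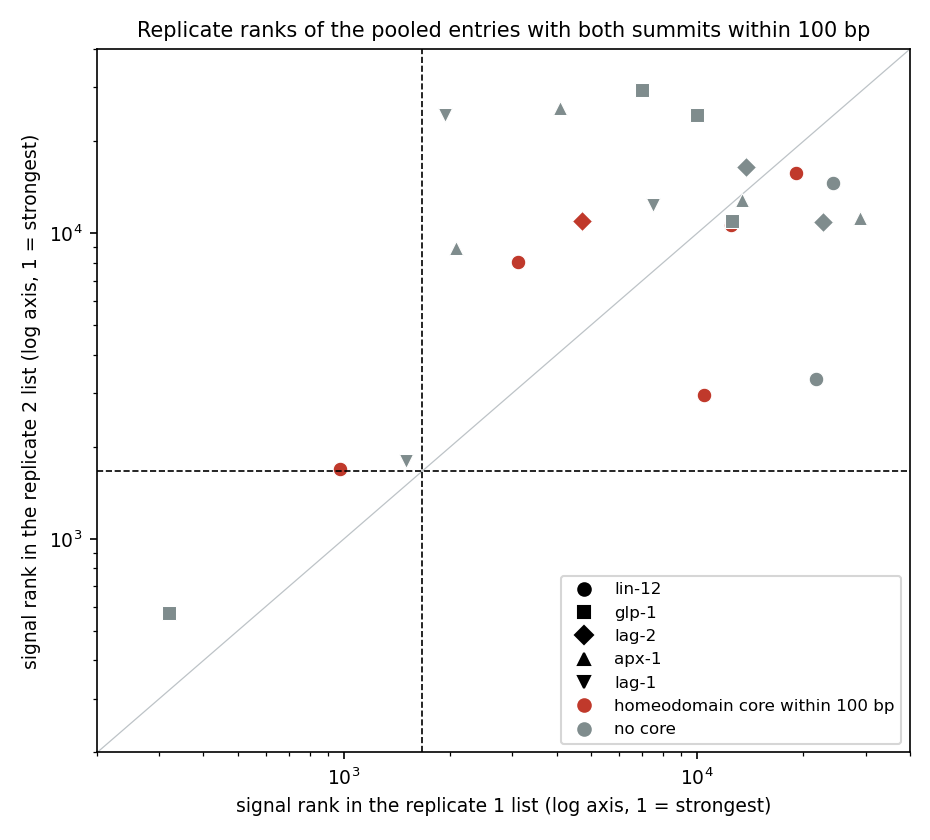
Signal ranks in the 2 replicate lists of the 21 pooled entries whose summit had a summit of both replicates within 100 bp. Both axes are ranks on log scales with 1 the strongest, shapes are genes, red marks entries with the homeodomain core, and dashed lines stand at rank 1662, the length of the optimal list. The glp-1 window's peak at ranks 319 and 570 is the only point inside both lines, and the lin-12 and lag-1 peaks lie just outside the line of replicate 2.

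The order of the 6 genes by their strongest pooled entry was glp-1 at 184.3, lin-12 at 97.5, lag-1 at 95.9, apx-1 at 61.2, lag-2 at 54.6 and sel-12 at 38.4. The median over the 17599 genes with an entry was 59.4. In replicate 1 the strongest entries had signals of 95.3, 52.4, 43.5, 38.3, 28.7 and 13.7 in this order of genes, and in replicate 2 86.8, 50.05, 48.8, 27.6, 26.9 and 33.2. The order of glp-1, lin-12 and lag-1 was thus the same in both replicates, while sel-12 stood last in replicate 1 and above apx-1 and lag-2 in replicate 2.

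A wider list of 46 other pathway genes was examined, of which 45 were in the annotation. In all, 15 (33.3%) had an optimal summit in the window, against 21.6% of all genes, and 44 had a pooled one, against 88.1%, with a median of 6 pooled summits beside 5 over all genes. Their median best signal was 68.8, beside 59.4 over all genes with an entry. Neighbouring genes of the list can share a summit, and no test was made of the difference from all genes. By role, 4 of 13 ligand and co-ligand genes, 0 of 3 genes of the nuclear complex, 2 of 6 genes of receptor proteolysis, 2 of 7 genes of trafficking and turnover and 7 of 16 reported target genes had an optimal summit. The nuclear coactivator gene sel-8 had a best signal of 77.0. The starts of dos-1, tbx-38 and epn-1, 3 of the 45, were nearest to an optimal summit, against 6.92% of all genes.

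The strongest of these summits often belonged to a neighbour by distance. For sel-5, a kinase gene found as a modifier of lin-12, the signal was 344.3 and the nearest start was that of idhg-1, an isocitrate dehydrogenase subunit, 62 bp away. The REF-1 family genes hlh-26 and hlh-27, targets of Notch signalling in the embryo, shared 1 summit with 244.1 that was nearest to the insulin-like gene ins-13. The T-box gene tbx-38, known to be kept off by Notch signalling in some cells of the early embryo, had a summit inside the gene with 179.2 and 15 copies of the telomere unit TTAGGC around it. The ligand gene dsl-1 had 178.0 at a summit in W09G12.9 with 23 such copies, and dsl-6 had 135.6 at a summit in the histone gene his-64. For dos-3, a co-ligand gene, the summit with 147.3 lay inside the gene, and the nearest start was that of zip-2. The targets lst-1 and ark-1 had 130.2 and 124.8, with T22A3.12 and efa-6 nearest, and the lst-1 summit lay inside set-18 and inside a tRNA or snoRNA gene. For epn-1, the epsin gene, there was a summit with 117.7 with atf-4 nearest and 1 with 94.7 at 421 bp upstream of its own start. The 15 genes had 19 distinct optimal summits, of which 4 held TAATCC within 100 bp, where 41.6% of all optimal entries did. Of the 19 summits, 4 held 3 or more telomere units around them, and the share over all optimal entries is not given here. None of the 3 optimal summits of the 6 members held a telomere unit, a count too small to set the members apart.

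**Figure D4:**
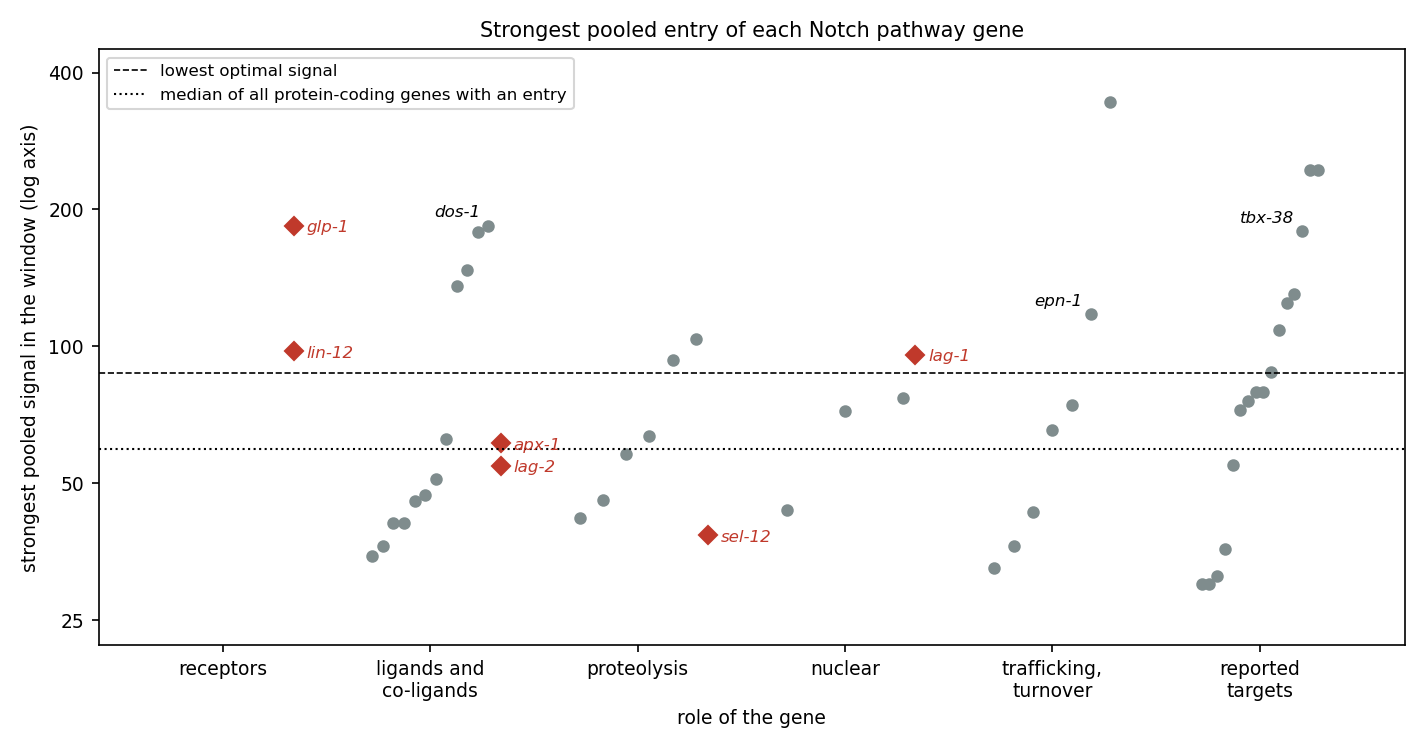
Strongest pooled signal in the window of each pathway gene, on a log axis, by role. Red diamonds are the 6 members, grey points are the other genes with an entry, named where they had the start nearest to an optimal summit, the dashed line is the lowest optimal signal of 87.2 and the dotted line the median of 59.4 over all genes. The receptors and lag-1 stand above the dashed line, with the same entry behind glp-1 and dos-1, while apx-1, lag-2 and sel-12 stand below it.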

How the data were processed

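The 2 samples were ChIP-seq libraries of 1 group, grouped by the replicate numbers in the labels. The authors deposited peak lists, and the ce11 replicate, pooled and optimal lists were used, while the ce10 lists were not. Column 7 of the deposited lists holds the signal of the authors' peak caller, column 9 holds −log10 of its q-value, and column 10 the offset of the summit from column 2. Per the sources used here, aligner and caller are not given, and read depth is unknown.

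Windows, motif counts on both strands within 100 bp of a summit and replicate matches by 1 bp or more of overlap were computed with Python 3.11.15, numpy 2.4.6 and pandas 2.3.3, from the Ensembl release 115 annotation and the RefSeq genome. The counting was checked on made-up data. No entry ran past a chromosome end. Named were the members, the genes at or nearest to their optimal summits, the neighbours of those in rank, and the 10 pathway genes with the strongest optimal summits. Other genes named were chosen after their values were seen. Of the neighbours in rank above the peak in the glp-1 window, none is reported here. The members and lists were chosen with earlier results of these data known, and GTGGGAA and the setting without tRNA and snoRNA genes after the summits had been seen. Other windows, motifs, thresholds and each replicate alone were tried. No p-value was computed, since there is 1 group. The labels do not say whether the replicates shared a culture.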

Additional observations from a re-analysis of the deposited data

How the results depend on the processing

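Of 63 alternatives over 7 results, 30 stayed close to the value and 33 moved it. Close meant a count within 1.5 times, a density within the SD of 1 per 100 kb between replicate lists, and a share of all genes within its 95% interval of 21% to 22.2%. A window from 5 kb upstream to 2 kb past the end left 2 members with 2 summits, 2.15 per 100 kb, 0 optimal peaks that ranked within the strongest of both replicates, 7 of the other pathway genes and 13.6% of all genes. A window from 20 kb upstream to 10 kb past the end gave 4 members with 6 optimal summits, 2.6 per 100 kb, 22 pathway genes and 34.1% of all genes. From 1500 bp upstream to 500 bp downstream of the start there were 0 members, 0 summits and 0 per 100 kb, with 2 pathway genes and 4.18% of all genes. By the nearest start there were 2 members with 2 summits, 3 pathway genes and 6.92% of all genes. The stronger 831 optimal entries left 1 member, 1 summit, 0 with TAATCC, 0.708 per 100 kb, 9 pathway genes and 12% of all genes. All pooled entries gave 6 members, 58 summits, 8 with TAATCC, 41.1 per 100 kb, 44 pathway genes and 88.1% of all genes. Without telomere-repeat windows the members stayed at 3, with 14 pathway genes and 16% of all genes. Without summits at tRNA and snoRNA genes, a setting chosen after seeing the data, there were 2 members with 2 summits, 1.42 per 100 kb, 13 pathway genes and 17.8% of all genes. CTAATCC and TAATTA were each at 0 of the 3 optimal summits. Accepting any replicate entry put 3 optimal peaks in both replicates. With the 1662 strongest entries of the other replicate in place of the optimal list when replicate 1 or 2 was left out, the members ran from 1 to 3, their summits from 1 to 3, those with TAATCC from 0 to 1, the density from 0.708 to 2.12, the pathway genes from 14 to 15 and all genes from 21.4% to 21.6%. The cause of these moves was not tested, beyond the smaller or larger windows and lists. No paired analysis was possible because the samples form 1 group. Depth limits cannot be given without read counts.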

Other observations

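The bases CTACAG stood directly before 3 of the 16 cores in the lin-12 window (18.8%), and all 3 were among the 9 at pooled summits. They were the most common bases before a core in the nuclear genome, at 1792 of 36668 (4.89%), and stood before 22 of the 1042 cores at optimal summits (2.11%) and 295 of the 6910 at pooled summits (4.27%). In the other 5 members' windows they stood before 2 of 40 cores. This was counted after the lin-12 sequences had been seen.

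Some optimal summits lay just outside the windows. For apx-1 a summit 7.1 kb past the end of the gene had a signal of 148.1 at rank 615, with 16 copies of the telomere unit and 1 TAATCC, and the nearest start was that of K08D9.10. For lin-12 a summit 5.9 kb past the end had 91.9 at rank 1466, nearest to R107.5. The next optimal summit past glp-1 was 10.1 kb beyond its end, with 93.8 at rank 1401, nearest to the cyclin gene cya-1. For lag-2 the closest was 40.2 kb past the end and for sel-12 31.4 kb.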
